A study of Mus musculus with 18 samples.

Results

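A set of 10 genes known from mesothelium and epithelia was followed through RNA-seq libraries of cultured mouse fibroblasts. The genes are Upk3b, Upk1b, Msln, Wt1, Krt8, Krt18, Krt19, Krt14, Vnn1 and Lrrn4, and they were picked by symbol, so that 10 of the 55487 gene identifiers in the count table were members. The genes had been selected on their levels across the replicate numbers of these same libraries. How they vary with replicate number is therefore a description and was given no test, whereas dose played no part in the choice and was tested.

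The libraries came from MEFs, that is, mouse embryonic fibroblasts, the adherent cells of dispersed embryo tissue, kept for 24 h in DMEM with serum and 0 (control), 10 or 30 µM uracil. Uracil is the base released from uridine by uridine phosphorylase-1. Each dose had 6 libraries, numbered 1 to 6, so each number stood on 3 libraries, 1 per dose. Strain, embryo, passage and what a shared number stands for (an isolation, a day or a dish) are not given in the sources used here. The cells were described to GEO as fibroblasts, and no sort or gate was named. The methods call the libraries of a dose biological replicates.

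Mesothelium is the simple epithelium that covers the body cavities and the organs in them. It carries keratins like other epithelia, but it is of mesodermal origin, and its precursors in the embryo express the transcription factor Wt1. In culture, mesothelial cells can take on a fibroblast shape. Keratins form filaments only as pairs of a type I with a type II chain, of which Krt8 with Krt18 is the usual pair of simple epithelia and Krt5 with Krt14 that of the basal layer of stratified epithelia.

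Gene counts came to 3.96 M in control library 1, 7.39 M in the 30 µM library 6 and 11.6 to 20.8 M in the other 16. Control library 1 had 54.2% of its read pairs unaligned, the 30 µM library 6 had 37.9% and the 10 µM library 6 had 5.24%, against 1.72% to 3.59% elsewhere. According to the methods, a vehicle and a high-dose sample were left out for human RNA, and the labels do not name them. Correlations below were therefore taken over the other 15 libraries, with all 18 beside them. The fibroblast label was set against markers of several cell types. Levels are in CPM, counts relative to library size after scaling by edgeR's TMM factors. They summed to between 27930 and 60190 over 18 fibroblast genes, compared with 7.34 to 12.03 over 6 endothelial genes and 1.08 to 3.39 over 6 blood genes. The sums were 13 to 30.6 over 6 skeletal muscle genes, most of it Acta1, and 18.9 to 46.3 over 6 neural genes, most of it the tubulin Tubb3. The muscle regulator Myod1 had 0 counts in all 18 libraries. The lists closest to the 10 genes had higher sums than the endothelial, blood, muscle and neural lists, but over more genes. Their sums were 86.6 to 226.6 over 14 other mesothelial genes and 114.2 to 214.3 over 20 simple epithelial genes. For 20 stratified epithelial genes the sums were 169.7 to 240.6. Single genes made up much of each. Bnc1 averaged 76.6 CPM, beside a median mesothelial sum of 131.7. Cdh3 averaged 155.7 CPM beside a simple epithelial median of 169.8, and Jup 162.4 CPM beside a stratified epithelial median of 199. In bulk RNA, more cells of a type and more RNA per cell cannot be told apart.

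The stretch before the transcription start was at hand for 5 of the 10 genes. Upk3b, Lrrn4 and Krt14 are printed because their levels varied together across the libraries, and Krt18 because its levels did not. Each is the 250 bases before the start in RefSeq (GRCm38.p6), on the gene's strand. Upk3b lies at chr5:136038246-136038495 (+), Lrrn4 at chr2:132880863-132881112 (-), Krt14 at chr11:100206031-100206280 (-) and Krt18 at chr15:102027966-102028215 (+). Capitals mark GGAATG or its reverse complement CATTCC, the core of the element bound by TEAD factors.

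Upk3b: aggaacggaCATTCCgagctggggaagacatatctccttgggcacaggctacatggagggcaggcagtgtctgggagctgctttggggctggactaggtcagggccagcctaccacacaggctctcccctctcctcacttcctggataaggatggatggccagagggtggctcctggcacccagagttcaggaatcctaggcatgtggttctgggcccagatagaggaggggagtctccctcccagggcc
Lrrn4: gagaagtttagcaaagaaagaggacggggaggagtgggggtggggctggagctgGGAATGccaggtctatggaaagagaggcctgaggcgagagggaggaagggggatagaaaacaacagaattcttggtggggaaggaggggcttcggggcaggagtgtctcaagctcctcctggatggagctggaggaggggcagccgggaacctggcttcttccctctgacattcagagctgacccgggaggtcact
Krt14: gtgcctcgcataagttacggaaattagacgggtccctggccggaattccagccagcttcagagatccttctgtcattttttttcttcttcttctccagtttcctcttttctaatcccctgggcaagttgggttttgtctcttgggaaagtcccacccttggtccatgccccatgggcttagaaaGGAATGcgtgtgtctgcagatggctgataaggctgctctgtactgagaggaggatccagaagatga
Krt18: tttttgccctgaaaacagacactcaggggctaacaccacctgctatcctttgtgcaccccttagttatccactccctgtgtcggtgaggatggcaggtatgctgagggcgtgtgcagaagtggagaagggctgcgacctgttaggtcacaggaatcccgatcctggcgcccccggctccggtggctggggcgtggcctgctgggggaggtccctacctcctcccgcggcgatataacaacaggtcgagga

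On either strand GGAATG was present in 3 of the 5 windows (Upk3b, Lrrn4 and Krt14), and in 12.64% of 32851 windows of the same length. GATAAG, the core bound by GATA factors, was present in 3 of the 5 (Upk3b, Krt14 and Krt8) and in 6.55% of all. TATAAA and the E-box CACGTG were in 0 of the 5, and in 12.37% and 6.02% of all windows. GATAAG and TATAAA share the inner letters ATAA, and the other motifs share no such run. A match is a description of the letters and not of binding.

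Levels were first ordered per length, as CPM per kb of exon, because long genes collect more reads. Krt19, a type I keratin without a fixed partner, was highest at a mean of 35.8 CPM per kb (range over 18 libraries 28.7 to 48.8). Upk1b, a tetraspanin of the uroplakin family, followed at 21.8 (9.09 to 36.2), and Msln, which encodes the GPI-anchored surface protein mesothelin, at 13.4 (3.71 to 25.2). Krt14 stood at 6.39 (1.87 to 17.5). The surface protein gene Upk3b had 4.07 CPM per kb (1.24 to 10.8), and Vnn1, the GPI-anchored pantetheinase vanin-1, had 3.62 (0.921 to 9.75). The type II keratin Krt8 had 3.08 (0.550 to 7.45), Wt1 1.34 (0.669 to 2.28), the type I keratin Krt18 0.632 (0 to 2.50) and Lrrn4, a leucine-rich repeat membrane protein, 0.488 (0.132 to 1.31). The ranges of each pair of neighbours in this order overlapped.

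**Figure D1:**
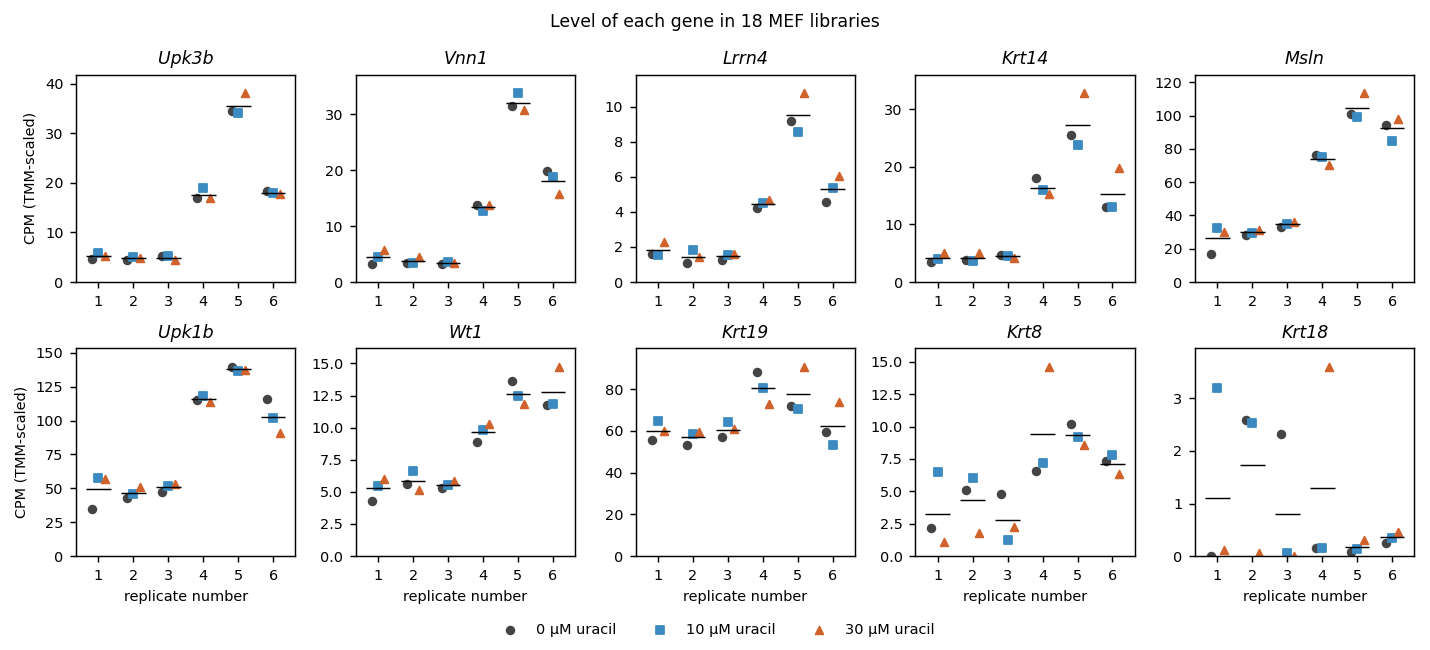
TMM-scaled CPM of the 10 genes (y axis, from 0) by replicate number (x axis) in 18 libraries, with the dose given by shape and colour and a bar at the mean of the 3 libraries of a number. The doses lie close together within a number for Upk3b, whose means run from 4.80 to 35.5 CPM, whereas Krt18 is high in single libraries.

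Upk3b belongs on GRCm39 to chromosome 5, 136067350 to 136075342 (+). It had 4.58, 5.89 and 5.32 CPM in libraries 1 at 0, 10 and 30 µM, 4.54, 4.99 and 4.87 CPM in libraries 2, and 5.26, 5.18 and 4.36 CPM in libraries 3. In libraries 4 it had 17.03, 18.9 and 16.8 CPM, in libraries 5 34.4, 34.0 and 38.0 CPM, and in libraries 6 18.3, 18 and 17.8 CPM. All 9 libraries numbered 4 to 6 lay above all 9 numbered 1 to 3, and libraries 5 stood highest. The counts behind these values were 17 to 509 per library. On the log2 scale, number held 99.3% of the variance of Upk3b and dose 0.1%, where the medians over the 13865 genes tested were 40.8% and 7.9%.

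Other members shared this order of the numbers in part. Taking numbers 4 to 6 against 1 to 3 is a split seen in the values, so it carries no test. In 7 of the 10 members (Upk3b, Upk1b, Msln, Wt1, Krt14, Vnn1 and Lrrn4) no library of 4 to 6 overlapped those of 1 to 3, which 1.56% of all genes tested met too, and nothing is read from that count because these genes were chosen for it. Summed over the 10 members, the libraries numbered 1 to 3 held 126.6 to 186.2 CPM and those numbered 4 to 6 314.9 to 473.7 CPM.

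Vnn1 (chromosome 10, 23770586 to 23781241, +) spanned the widest range of these 7. It had 3.23, 4.44 and 5.68 CPM in libraries 1, 3.35, 3.45 and 4.45 CPM in libraries 2, and 3.18, 3.58 and 3.42 CPM in libraries 3. It then had 13.8, 12.8 and 13.7 CPM in libraries 4, 31.5, 33.7 and 30.7 CPM in libraries 5, and 19.9, 18.7 and 15.8 CPM in libraries 6. Its mean was 9.42 times higher at number 5 than at number 3, against 7.40 times for Upk3b between numbers 5 and 2. Lrrn4 (chromosome 2, 132705985 to 132735941, -) was the least abundant of them, with 1.46 ± 0.384 CPM at number 2 and 9.50 ± 1.13 CPM at number 5 (SD, n = 3), and it overlaps Crls1 on the other strand. Number 4 stood at 4.46 ± 0.234 CPM and number 6 at 5.31 ± 0.747 CPM, so the order 5, 6, 4 was that of Upk3b and Vnn1, and numbers 4 and 6 had overlapping libraries in Lrrn4.

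Krt14 (chromosome 11, 100093988 to 100098490, -), named for the basal layer of skin, followed the surface proteins rather than the other keratins of the set. Its means were 4.21 ± 0.803, 4.17 ± 0.812 and 4.50 ± 0.258 CPM at numbers 1, 2 and 3, which did not differ beyond their spread. They were 16.4 ± 1.45, 27.3 ± 4.76 and 15.3 ± 3.92 CPM at numbers 4, 5 and 6 (SD, n = 3 each). The type II partner Krt5 was near the limit of detection, at 0 to 0.539 CPM. The basal keratins Krt15 and Krt17 reached at most 0.545 and 0.149 CPM. Other genes of the basal layer were higher, with the integrin chain Itgb4 at 3.95 to 11.1 CPM. The regulator Trp63 reached up to 2.16 CPM and the collagen gene Col17a1 up to 1.11 CPM. Itgb4 had its highest mean at number 5, as Krt14 did. Trp63 was highest at number 1 and Col17a1 at number 2, and both were lowest at number 4, unlike Krt14.

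Msln, Upk1b and Wt1 changed by smaller factors. Msln (chromosome 17, 25967312 to 25985619, -) had 26.4 ± 8.45, 29.8 ± 1.28 and 34.8 ± 1.52 CPM at numbers 1, 2 and 3 and 73.9 ± 3.00, 104.5 ± 7.64 and 92.3 ± 6.96 CPM at numbers 4, 5 and 6. Its lowest library was control 1, at 16.7 CPM against 32.3 and 30.1 CPM in the other libraries of that number. Upk1b (chromosome 16, 38591981 to 38620727, -) ran from 46.5 ± 4.23 CPM at number 2 to 137.7 ± 1.38 CPM at number 5, and was likewise lowest in control library 1, at 35.01 CPM. Wt1 (chromosome 2, 104956625 to 105003961, +) was at 5.26 ± 0.878, 5.81 ± 0.760 and 5.56 ± 0.256 CPM at numbers 1 to 3, and at 9.66 ± 0.714, 12.7 ± 0.896 and 12.8 ± 1.68 CPM at numbers 4 to 6 (SD, n = 3). Numbers 5 and 6 could not be separated for Wt1, in contrast to Upk3b, Vnn1, Lrrn4 and Krt14, whose means at number 6 were between 0.509 and 0.567 of those at number 5. Wt1, Msln, Krt8, Lrrn4, Upk3b, Upk1b and Krt19 overlap non-coding genes on the other strand in the annotation, and because the strand setting of the counting is not stated, reads of both strands may be mixed in their counts. No overlap was annotated for Krt18, Krt14 and Vnn1.

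Across the 15 libraries with few unaligned pairs, the 21 pairs among these 7 genes had Pearson r of log2 CPM from 0.94 to 0.99, and from 0.92 to 0.99 over all 18. These points share library and number, and the genes were chosen for a common pattern, so the coefficients are descriptive. Krt19 had r of 0.65 to 0.82 with the same genes, Krt8 0.63 to 0.72 and Krt18 -0.32 to -0.23.

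**Figure D2:**
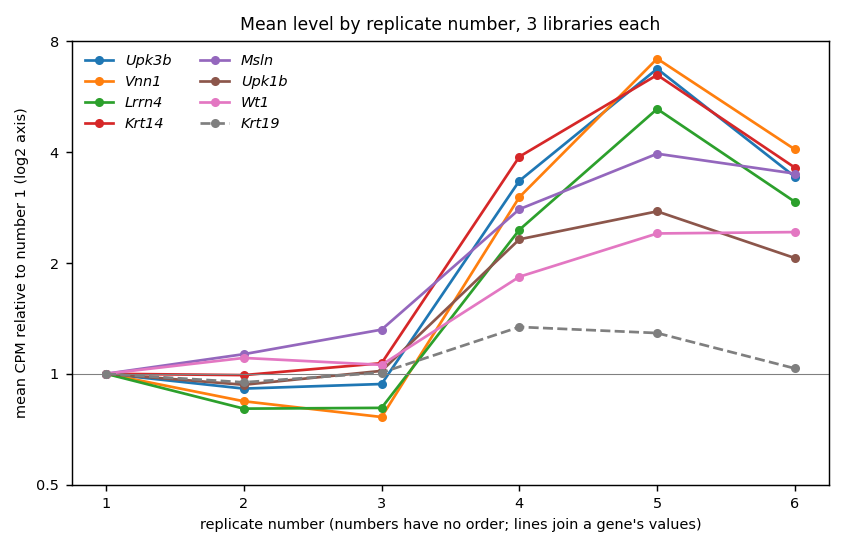
Mean CPM of 8 genes at each replicate number (x axis, 3 libraries each), divided by the gene's mean at number 1 and drawn on a log2 axis. Upk3b, Vnn1, Lrrn4 and Krt14 peak at number 5, Wt1 is level between 5 and 6, and Krt19 (dashed) moves by at most 1.41 times between its lowest and highest number.

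The simple-epithelial keratins did not follow this pattern closely. Krt19 (chromosome 11, 100031636 to 100039491, -), 54496 bases from Krt14, had the flattest profile, with means of 60.2 ± 4.77, 57.0 ± 3.20 and 60.6 ± 3.56 CPM at numbers 1 to 3 and 80.6 ± 7.63, 77.6 ± 11.2 and 62.2 ± 10.7 CPM at numbers 4 to 6 (SD, n = 3). The mean at number 6 differed from those at numbers 1 to 3 by less than its SD. Number held 69.6% of the variance of Krt19, compared with 60.6% for Krt8 and 13.9% for Krt18.

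Krt18 (chromosome 15, 101936615 to 101940462, +) was present in 5 libraries and nearly absent from the rest. It had 64 counts in the 10 µM library 1, 48 in control library 2, 41 in the 10 µM library 2, 48 in control library 3 and 51 in the 30 µM library 4, or 2.32 to 3.59 CPM. The other 13 libraries had 0 to 5 counts, or at most 0.464 CPM. Control library 1 and the 30 µM library 3 had 0 counts, which allows up to 0.808 and 0.218 CPM (3 counts). The 5 libraries came from all 3 doses and from numbers 1 to 4, and control library 1 and the 30 µM library 6, with the most unaligned pairs, were not among them.

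Krt8 (chromosome 15, 101905133 to 101912917, -), 23697 bases from Krt18, joined both patterns. Its values at 0, 10 and 30 µM were 2.16, 6.49 and 1.08 CPM in libraries 1, 5.13, 6.03 and 1.74 CPM in libraries 2, and 4.78, 1.22 and 2.26 CPM in libraries 3. In libraries 4 they were 6.54, 7.20 and 14.6 CPM, in libraries 5 10.2, 9.19 and 8.59 CPM, and in libraries 6 7.32, 7.79 and 6.34 CPM. In numbers 1 to 4, Krt8 was higher in each library with Krt18 than in each library of the same number without it. In numbers 5 and 6 it was at 6.34 CPM or more while Krt18 was at 0.0733 to 0.464 CPM, so that Krt8 was measured there nearly without its usual partner. Krt19 and Krt14, the other type I chains, were both present in those libraries.

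The genes most like Krt18 were searched after its values were seen, over all 18 libraries and 16269 genes with at least 50 counts. The 10 with the highest r were Dmbt1 (0.96), Wfdc2, Epcam, Cldn2, Apoe, Pigr, Clu, Ctse, Lcn2 and Pglyrp1 (0.92). Several encode proteins of mucosal and glandular epithelium, among them the secreted scavenger protein Dmbt1, the adhesion protein Epcam, the tight junction protein Cldn2 and Pigr, the receptor that carries immunoglobulin A across epithelia. Each was higher in every one of the 5 libraries than in any of the other 13, as the search favours. Dmbt1 had 334 to 925 counts in the 5 and 0 to 13 elsewhere, and Epcam had 11 to 29 against 0 to 3.

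Genes of the simple epithelial list that the search did not pick behaved partly alike. Elf3, an epithelial transcription factor, had 3 to 10 counts in the 5 libraries and 0 in the other 13, and Esrp1, an epithelial splicing factor, had 3 to 7 against 0 or 1. The claudins Cldn3 and Cldn7 had 4 to 6 and 3 to 8 counts, against at most 1 and 2. E-cadherin (Cdh1) overlapped, with 1.70 to 2.89 CPM in the 5 and up to 3.37 CPM elsewhere. Of the 6 hepatocyte genes, the transcription factor Hnf4a had 1 to 5 counts in the 5 libraries and 0 in the other 13, while Ttr overlapped, with 2 to 17 against 0 to 2 counts. Alb, which encodes albumin, had 288 counts (17.7 CPM) in the 10 µM library 2, 48 counts in the 10 µM library 1 and 4 or fewer in each of the others. The part of other cells in the Krt18 and Krt8 values was not tested.

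**Figure D3:**
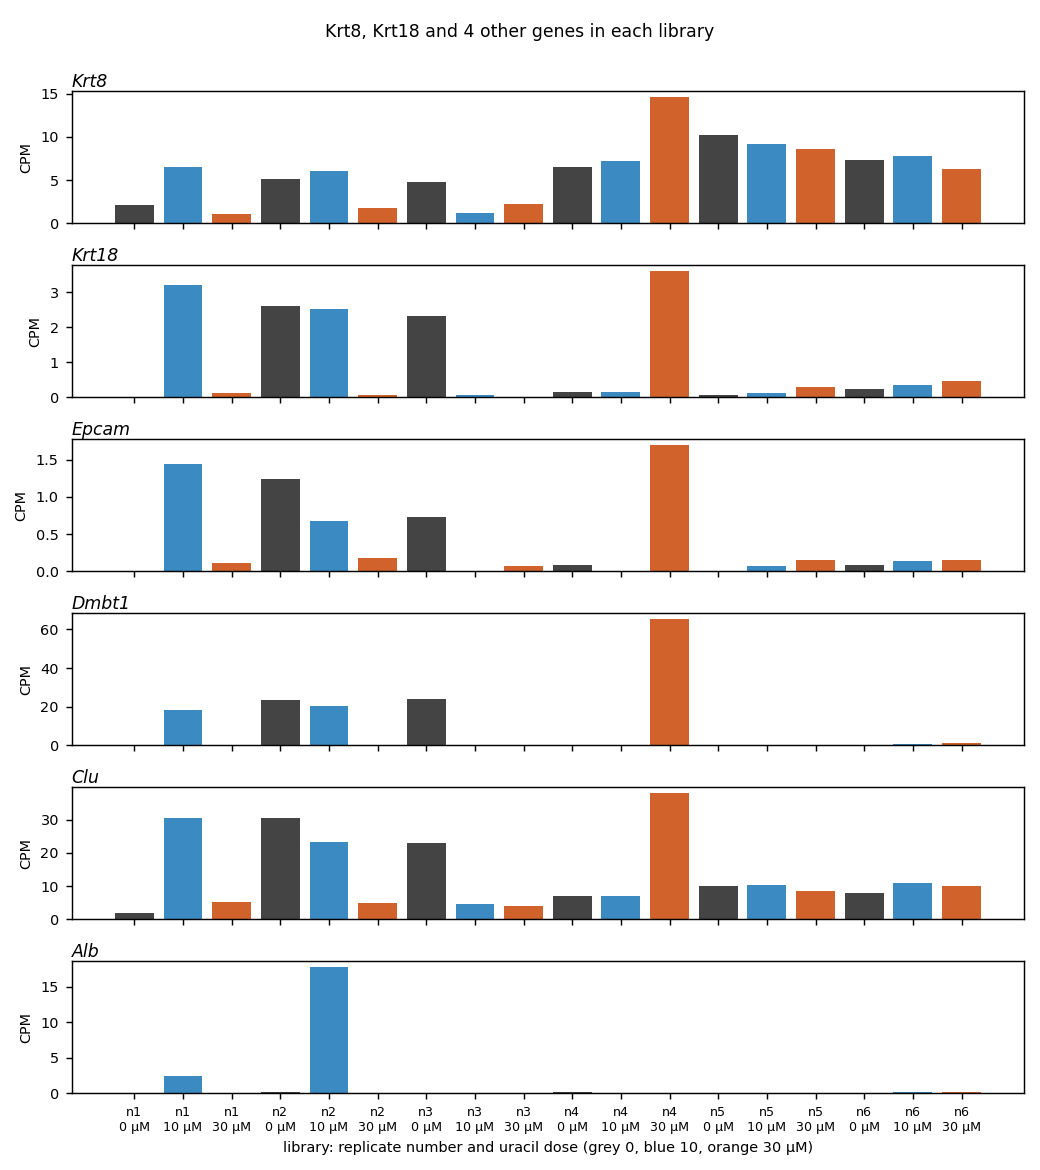
CPM (y axes, from 0) of Krt8, Krt18, Epcam, Dmbt1, Clu and Alb in each of 18 libraries, labelled by replicate number and uracil dose, with the dose also given by colour. Krt18, Epcam, Dmbt1 and Clu are highest in the same 5 libraries, whereas Alb reaches 17.7 CPM in 1 of them.

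The next question was whether uracil changed any of the 10 genes. Upk3b ran from 4.54 to 34.4 CPM in control libraries (median 11.2), from 4.99 to 34.0 CPM at 10 µM (median 11.9) and from 4.36 to 38.0 CPM at 30 µM (median 11.1). Vnn1 had medians of 8.58, 8.61 and 9.71 CPM at 0, 10 and 30 µM, with lowest values of 3.18 to 3.45 CPM and highest values of 30.7 to 33.7 CPM. For both genes the 3 doses overlapped over nearly their whole range.

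Of the 10 members 9 passed the filter on low counts and were fitted with 13865 genes. In edgeR's quasi-likelihood test, 0 of the 9 were called at an adjusted p under 0.05 in any dose contrast, as were 0 (0%) of all genes in each. At an unadjusted p under 0.05 the counts of members were also 0, against 96 genes (0.692%) at 10 µM versus control, 595 (4.29%) at 30 µM versus control and 323 (2.33%) at 30 versus 10 µM. DESeq2 also called 0 members. The log2 fold changes at 30 µM versus control were 0.01 ± 0.67 for Upk3b, 0.01 ± 0.39 for Upk1b, 0.09 ± 0.48 for Msln and 0.07 ± 0.33 for Wt1 (SE). They were -0.07 ± 0.73 for Vnn1, 0.23 ± 0.63 for Lrrn4, 0.21 ± 0.64 for Krt14, -0.13 ± 0.55 for Krt8 and 0.11 ± 0.13 for Krt19. The median of the 9 was 0.07, beside 0.01 over all genes tested.

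The precision of these contrasts differed among the members. For Krt19 the 95% interval at 30 µM versus control was -0.17 to 0.39 on the log2 scale (adjusted p = 0.957, edgeR). For Upk3b it was -1.41 to 1.43 and for Vnn1 -1.61 to 1.47, and these intervals come from the dose-only fit, in which the spread between numbers counts as error. Within a number, the log2 CPM of the 3 libraries had an SD of 0.11 for Upk3b and 0.20 for Vnn1. At 10 µM versus control the 9 log2 fold changes lay between -0.12 (Krt14) and 0.06 (Lrrn4), with adjusted p = 1 for each in edgeR. At 30 versus 10 µM they lay between -0.15 (Krt8) and 0.33 (Krt14), again with adjusted p = 1 in edgeR.

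Krt18 was too sparse for the fit. Control libraries averaged 0.899 ± 1.21 CPM, those at 10 µM 1.07 ± 1.41 CPM and those at 30 µM 0.756 ± 1.40 CPM (SD over 6 libraries). The difference was 0.170 CPM at 10 µM versus control, with p = 0.656 in a two-sided exact permutation test of 6 against 6 libraries. It was -0.143 CPM at 30 µM versus control (exact permutation p = 0.924) and -0.313 CPM at 30 versus 10 µM (exact permutation p = 0.866), each with an adjusted p of 0.924 over the 3 contrasts. The smallest p that 924 permutations allow is 0.00216.

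**Figure D4:**
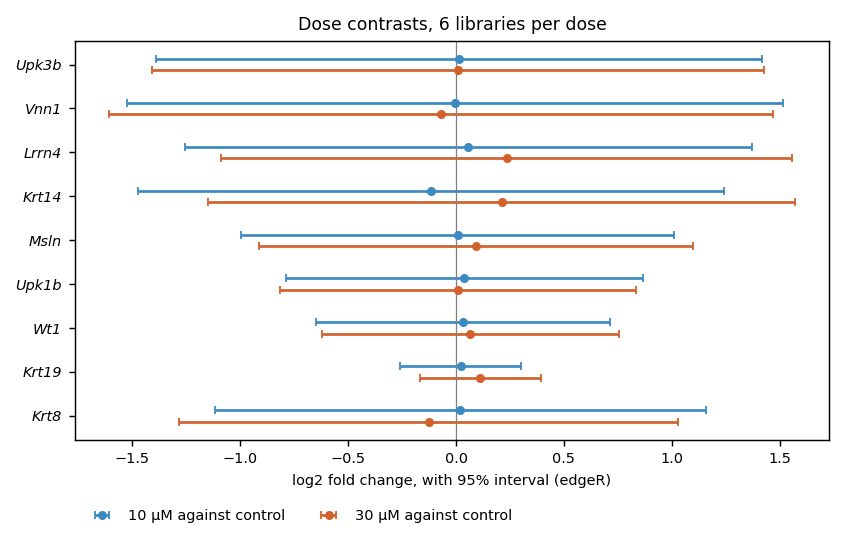
log2 fold change (x axis) of the 9 fitted genes at 10 µM (blue) and 30 µM (orange) against control, as the edgeR estimate with its 95% interval, 6 libraries per dose. Every interval includes 0, and the narrowest, for Krt19, runs from -0.17 to 0.39 at 30 µM.

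For Upk3b, Krt8 and Krt14, the non-member genes most like each were sought among 12973 genes with a mean of at least 1 CPM. Over the 15 libraries, Upk3b was matched most closely by Smpd3, a sphingomyelin phosphodiesterase (r = 0.99, mean 36.4 CPM), the protease inhibitor Slpi, Igfbp4, which encodes an IGF-binding protein, Sft2d2 and Ezr, which encodes the membrane linker ezrin (r = 0.98). Krt14 was matched by Sft2d2, Igfbp4, Crybg1, Smpd3 and the adhesion molecule Cadm1 (r = 0.99 to 0.98). Krt8 had no equally close match. Its list was led by Cdh1 (r = 0.90), followed by the cell cycle inhibitor Cdkn1b, Cp, which encodes ceruloplasmin, Shox2 and Cebpg (r = 0.86). Over all 18 libraries r was 0.91 to 0.98 for the genes named for Upk3b and Krt14, and Cebpg had 0.58 with Krt8. Of the 5 genes named, 3 were still among the 5 closest to Upk3b over 18 libraries, and 2 among the 5 closest to Krt14.

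Other genes of mesothelium were then read from a list of 14, by an F test of replicate number with dose in the model. The list was chosen with earlier results of these data known, but without the values of its genes. Upk3b was itself selected for its pattern across numbers, so r with it is descriptive. Of all genes tested, 1745 of 13865 (12.6%) differed by number. Of the mesothelial list 11 genes passed the filter and 9 were called, and all 9 had a positive r with Upk3b (median of the 11, 0.92), whereas 757 of the 1745 called genes had one and the median over all genes was -0.01. Bnc1, which encodes the zinc finger protein basonuclin-1, had 108.5 ± 4.59 CPM at number 5 and 53.0 ± 1.59 CPM at number 2 (SD, n = 3, adjusted p = 2.7e-07 in edgeR). The membrane glycoprotein gene Gpm6a was at 22.1 ± 2.74 and 2.40 ± 0.317 CPM at numbers 5 and 3 (edgeR adjusted p = 2.03e-07). Crb2 (28.9 ± 5.90 CPM at number 6, 11.3 ± 0.602 at number 2), the type II keratin Krt7 (17.7 ± 2.79 at number 5, 7.58 ± 0.911 at number 3) and Pkhd1l1 (12.01 ± 1.39 at number 5, 2.55 ± 0.376 at number 3) were called as well.

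The 5 genes of the mesothelial list that were not called or not tested were low or absent. The tight junction gene Cldn15 (mean 1.37 CPM) and Rspo1 (0.904 CPM), which encodes a Wnt signal enhancer, passed the filter and were not called (edgeR adjusted p = 0.169 and 0.437). Calb2, which encodes the mesothelial marker calretinin, had 0 counts in all 18 libraries. Muc16, which encodes the mucin that binds mesothelin, had up to 28 counts in a library and a mean of 1.25 ± 0.886 CPM at number 6 (SD, n = 3), and Dmkn had at most 4 counts. Neither passed the filter. The uroplakins Upk2 and Upk3a, which form the urothelial plaque with Upk1a and Upk1b, also had 0 counts in all 18, Upk1a had at most 3 and Upk3bl at most 2.

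Transcription factors of the coelomic lining and nearby mesoderm formed a second list, of which 5 of 12 passed the filter and 4 were called. Gata6 had 53.4 ± 13.2 CPM at number 6 and 33.1 ± 1.94 at number 3, Hand2 had 9.25 ± 0.596 at number 5 and 3.74 ± 1.11 at number 3, and Gata4 had 2.11 ± 0.640 at number 6 and 0.518 ± 0.290 at number 1 (SD, n = 3). Their r with Upk3b was 0.95, 0.94 and 0.59. Tbx18 ran the other way, with r of -0.67 and 32.9 ± 2.53 CPM at number 1 against 24.1 ± 3.58 at number 6. Osr1 was not called (adjusted p = 0.157, edgeR), and Tcf21 and Pax2 had 0 counts in all 18 libraries.

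Epithelial lists outside mesothelium were mostly too low to be fitted. Of 20 simple epithelial genes 5 passed and 3 were called, namely P-cadherin (Cdh3, 189.3 ± 4.90 CPM at number 5, 127.6 ± 21.6 at number 1), the splicing factor Esrp2 (10.8 ± 0.352 at number 4, 5.95 ± 0.0275 at number 1) and the protease inhibitor Spint1 (4.90 ± 0.374 at number 5, 2.31 ± 0.294 at number 2). Their r with Upk3b was 0.92 to 0.96. For Cdh3, control library 1 had 102.9 CPM, against 137.3 and 142.6 CPM in the other libraries of number 1. Spint2 and Cdh1 were not called (edgeR adjusted p = 0.732 and 0.254). Of 20 stratified epithelial genes 10 passed and 6 were called, 3 with positive and 3 with negative r. Jup, which encodes plakoglobin (r = 0.77), and the integrin chain Itgb4 (r = 0.86) had positive values, while the desmosome gene Dsp had r of -0.88 and 10.2 ± 0.448 CPM at number 1 against 4.56 ± 0.604 at number 6. Perp and Pkp1 had r of -0.56 and -0.30, and Krt10, Pkp3 and Trp63 were not called (edgeR adjusted p = 0.815, 0.204 and 0.0533).

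**Figure D5:**
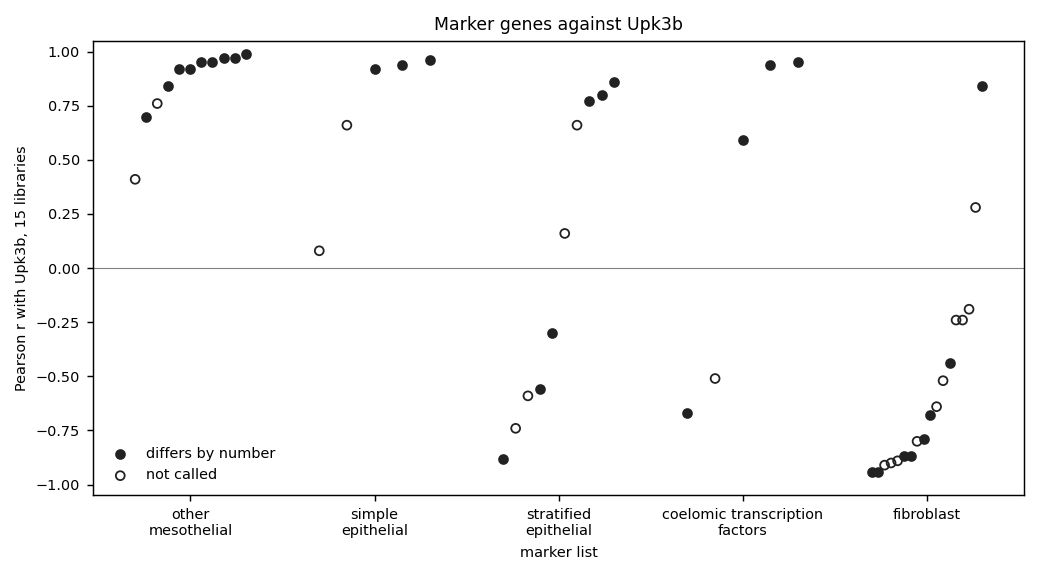
Pearson r of log2 CPM with Upk3b over 15 libraries (y axis) for the tested genes of 5 marker lists (x axis), filled where edgeR called the gene by replicate number (adjusted p under 0.05). The 11 mesothelial genes all lie above 0, and 7 of the 8 filled fibroblast genes lie below it.

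The fibroblast list differed by number as well. All 18 genes passed, 8 were called, and 7 of the 8 had a negative r with Upk3b (median of the 18, -0.74). Postn, which encodes the matrix protein periostin, had 209.3 ± 1.97 CPM at number 2 and 70.1 ± 12.5 at number 6, and the receptor Pdgfrb had 237.8 ± 5.05 at number 2 and 142.4 ± 11.5 at number 6 (SD, n = 3). Fibrillin-1 (Fbn1) had 2703 ± 119.2 CPM at number 1 and 1883 ± 126.9 at number 5. Col3a1 and S100a4 were called too (edgeR adjusted p = 0.0288 and 0.0161), and the matrix proteoglycan gene Dcn was the exception, with r of 0.84. Col1a1, Col1a2 and vimentin (Vim) were not called (edgeR adjusted p = 0.287, 0.896 and 0.325).

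Among the remaining lists, 1 of 2 tested skeletal muscle genes was called, Acta1 (26.0 ± 4.78 CPM at number 1, 14.7 ± 1.91 at number 6), and Des was not. The calls were 0 of 2 for endothelial genes (Kdr and Tek), 0 of 2 for blood genes (Csf1r and Cd68) and 0 of 1 for neural genes (Tubb3), and the defining genes Pecam1, Cdh5, Ptprc and Sox10 had at most 6 counts in any library. The 4 other uroplakins and the 6 hepatocyte genes did not pass the filter.

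The counts by number depended on which libraries were used. Without the 5 libraries that held Krt18, a choice made after seeing the data, 355 genes differed by number, and the calls were 7 for the mesothelial list, 0 for the coelomic factors, 1 each for the simple and the stratified epithelial lists and 4 for fibroblasts. Without the 3 libraries with most unaligned pairs the gene count was 2890 and the mesothelial calls were 9. The part of cell mixture in these differences was not tested, and number cannot be told apart from anything else that its 3 libraries shared.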

How the data were processed

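Total RNA of 18 MEF cultures was sequenced as stranded, ribosome-depleted, paired-end libraries (0, 10 and 30 µM uracil for 24 h, 6 libraries each). The authors deposited raw counts, unnormalised whole numbers of pairs assigned to each Ensembl identifier. The submitters' processing notes name FastQC, HISAT2, SAMtools 1.2 and HTSeq without a role, and the human build GRCh38, although the identifiers are those of mouse genes. The mouse build, the annotation and the strand setting are not given in the sources used here. Reads that fit several places were not counted to a gene, which lowers genes with near-identical copies.

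The 5 closing entries for uncounted pairs entered neither library sizes nor tests (unaligned pairs made up 1.72% to 54.2%). GENCODE M39 (GRCm39) gave positions, and names for 51731 of 55487 identifiers, and promoter windows are from RefSeq (GRCm38.p6), 1-based. All count columns matched a sample (0 did not). Groups and replicate numbers came from the sample titles.

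The counts were fitted in edgeR 4.0.16 under R 4.3.3 (filterByExpr on dose, TMM, robust quasi-likelihood fits over 18 libraries, dose as the only term, two-sided, Benjamini-Hochberg adjustment over 13865 genes, threshold 0.05). SE is the log2 fold change over the root of its F statistic. Replicate number was tested with an F test beside dose, for marker lists only. CPM is TMM-scaled, and correlations use log2 CPM with a prior count of 2. Depth was 3.96 to 20.8 M gene counts, limits from 0 counts cover counting error only, and p-values measure the spread between these libraries.

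Members and lists were chosen with earlier results of these data known. Named are all members, the 5 genes most like Upk3b, Krt8 and Krt14, and from each list up to 5 genes called by number and up to 3 not called, by mean CPM. Genes given as absent or as following Krt18 were named after their values were seen. Alternatives were DESeq2 1.42.0, limma 3.58.1 voom with quality weights, other size factors, library totals, other filters, only the groups compared, libraries left out and replicate number as a block. The fits were also run on counts simulated without the real differences between numbers. Those runs do not show the power of the dose contrasts here.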

Additional observations from a re-analysis of the deposited data

Results flagged for a closer look

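In the 30 µM group, library 4 stood apart for Krt18, at 3.592 CPM (51 counts), where the other 5 libraries of that dose had 0 to 0.464 CPM. The gap was 0.871 of the range of the group, above Dixon's 95% critical value for 6 libraries. Of 30 groups looked at (10 genes at 3 doses), this was the only one. The 6 libraries of a dose carry the 6 replicate numbers, and the genes had been selected on their levels across these. The flag is therefore a description, and how often chance would give it cannot be read from it. Krt18 was at 2.32 to 3.19 CPM in control libraries 2 and 3 and in the 10 µM libraries 1 and 2. This rule, which looks for a single extreme library, does not pick out such pairs. The reason for the level in the 30 µM library 4 was not tested.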

How the results depend on the processing

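Under every alternative run, 0 members were called in the 3 dose contrasts. Counts of genes differing by number (1745) moved to 2989 with DESeq2, 5959 with voom, 3287 without control 1 and 30 µM 6, 2890 without these and 10 µM 6, and 355 without the 5 libraries with Krt18 (chosen after seeing the data). Leaving out 1 library gave 1272 to 3498, the highest without control 1 and 3271 without control 6. Fibroblast calls (8) were 16 with voom, 13 without the 3 libraries and 4 without the 5, or 7 to 9 leaving out 1. Mesothelial calls (9) were 5 with at least 10 counts in every library, where fewer genes were tested. Without the 5 libraries, coelomic calls were 0, simple and stratified epithelial calls 1 each. Leaving out 1 library gave 3 to 7 stratified calls, with 3 calls without control 4 or 10 µM 4. Settings that leave libraries out also leave fewer replicates per number.

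At 30 µM versus control, signs turned and none of these values passed the threshold. With voom, log2 fold changes were -0.33 (Krt14), -0.071 (Lrrn4), -0.36 (Msln), -0.21 (Upk1b), -0.54 (Upk3b) and -0.21 (Wt1). On library totals they were -0.029 for Upk1b and -0.034 for Upk3b. Without 2 and without 3 libraries they were -0.051 and -0.052 (Krt14), -0.25 and -0.25 (Msln), -0.16 and -0.16 (Upk1b), -0.19 and -0.20 (Upk3b), and -0.20 and -0.20 (Wt1). Without the 5 libraries they were -0.25 (Krt14), -0.001 (Krt19), -0.27 (Lrrn4), -0.25 (Msln), -0.40 (Upk1b), -0.47 (Upk3b) and -0.24 (Wt1). In that setting the log2 ratio of Krt18 between numbers 2 and 5 (3.35) was -1.50, which rests on near-zero counts. Number 2 then had only its 30 µM library, at 1 count, and number 5 had 1 to 4 counts per library. Leaving out 1 library gave -0.30 to 0.62 for Krt14, 0.02 to 0.23 for Krt19, -0.70 to 0.11 for Krt8, -0.30 to 0.79 for Lrrn4, -0.17 to 0.32 for Msln, -0.19 to 0.23 for Upk1b, -0.59 to 0.51 for Upk3b, -0.62 to 0.46 for Vnn1 and -0.11 to 0.27 for Wt1. The cause of these shifts was not tested.

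Libraries of 1 number correlated in their deviations from the dose means by -0.10 to 0.71 (16 of 18 pairs over 0.1). Of 18 libraries, 12 correlated best with another of their own number, and 8 of the 15 with few unaligned pairs did. What a shared number stands for is not stated, so the main fit treated the doses as unpaired groups. With number as a block, 0 members were called. Genes at an unadjusted p under 0.05 were 161, 937 and 588 in the 3 contrasts. The members among them were 0, 1 and 1. Lrrn4 had a log2 fold change of 0.32 at 30 µM versus control (edgeR adjusted p = 0.656), and Krt14 one of 0.30 at 30 versus 10 µM (edgeR adjusted p = 0.82). The higher dose had the higher CPM in 6 of 6 numbers for Lrrn4 and in 4 of 6 for Krt14. SEs were smaller, at 0.075 for Upk3b (0.01) and 0.106 for Vnn1 at 30 µM versus control. Vnn1 turned to 0.078, and to 0.083 with the block and 3 libraries left out. With the block, the edgeR p of Vnn1 at 30 µM versus control was 0.976, larger than 0.078 with an SE of 0.106 would give. These SEs may therefore overstate the precision. Control library 1, with 3.96 M counts, limits the lowest genes most.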
